A study of Mus musculus with 1931 samples.

Results

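The Epi-like cells of Rosette-to-Lumen stage embryoids (RtL-embryoids) were compared with ESCs of the same line kept in 2D culture with 2i and LIF. RtL-embryoids are mouse embryo-like structures that assemble from 3 ESC lines. The 3D Epi-like cells were taken from well columns 1 to 8 of plates 3, 4 and 5, and the ESCs from plate 7. Wells with at least 2500 genes above 0 TPM were kept, which left 82.2% of the Epi-like wells and 44.8% of the ESC wells. These cells are 32.4% of the 1406 cells of the series that passed this minimum, 22.3% of which are Epi-like wells and 10.1% ESCs.

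Both sides are Kermit ESCs, a line derived from blastocysts of *Oct3/4*-GFP transgenic mice, and both were sorted as single cells by GFP. The ESCs grew on gelatin in serum with LIF, the GSK3 inhibitor CHIR-99021 and the MEK inhibitor PD0325901. In the embryoids, Kermit ESCs were aggregated with 5-Factor ESCs, which carry inducible *Cdx2*, *Tfap2c*, *Eomes*, *Gata3* and *Ets2*, and with mCherry-marked iGATA6 ESCs, which carry an inducible *Gata6*. The aggregates were moved to a serum-containing embryo medium without 2i and LIF, with doxycycline at 2 µg/ml, which was later withdrawn. Kermit ESCs carry no doxycycline-dependent transgene but met the drug all the same. The embryoids were picked by hand, pooled and dissociated, so the 3D side is 1 pool and the 2D side is 1 culture. Plates 3, 4 and 5 are technical splits of that pool. With 1 sample a side nothing could be tested, and the values below carry no p-value. Growth in 3D, the neighbouring cells, the medium, the drug and the plate all changed at once between the sides, and their shares in a difference cannot be told apart.

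As background, LIF binds a receptor pair of Lifr and gp130 (encoded by *Il6st*) and acts through phosphorylated STAT3, which switches on *Socs3*, *Klf4* and *Tfcp2l1* in ESCs. PD0325901 blocks the step from MEK to ERK, the kinase through which FGF4 pushes naïve cells toward differentiation, and ERK activity is commonly read from its feedback genes of the Sprouty and DUSP families. CHIR-99021 stabilizes beta-catenin and so relieves repression of naïve genes by Tcf7l1. In the embryo, epiblast cells leave the naïve state after implantation, gain the de novo DNA methyltransferases, and arrange into a polarized rosette around a lumen.

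SMART-seq2 reads transcripts along their full length and gives no molecular identifiers. The number of genes found per cell took the place of depth, and it differed widely: 4823 in the median of the Epi-like wells (range 2550 to 7684) against 9093.5 in the ESCs (3358 to 10742). On plates 3, 4 and 5 the median was 5710, 4448 and 4199. A weakly expressed gene is therefore found in more ESCs than Epi-like wells at the same level, and shares of cells are read here only beside the mean. Intervals of shares are exact Clopper-Pearson intervals at 95%, which cover counting error alone.

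The sample labels do not state which sorted population each well column holds, so the wells were checked by marker genes. All 7 epiblast markers were found in at least 10% of the Epi-like wells and of the ESCs. *Pou5f1*, the gene of Oct4, was found in 99.7% of the Epi-like wells. Of 12 visceral endoderm (VE) markers none reached 10% of the Epi-like wells, *Afp* and *Ttr* were at 0, and the summed level had a median of 0 with a highest cell of 12.8. Of 10 extraembryonic ectoderm (ExE) markers 3 reached 10% of the Epi-like wells, with a median sum of 0 and a highest cell of 5.78, and 47.1% of these wells held at least 1 of them. In 2 of the Epi-like wells the VE and ExE markers together exceeded the epiblast markers, against 0 of the ESCs. In the ESCs 8 of 10 ExE markers reached 10% and 94.4% of the cells held at least 1, at a median sum of 0.253 and a highest of 1.86, while 1 of 12 VE markers reached 10% with sums from 0 to 0.753. Fibroblast markers, looked for because feeder cells are common in ESC work, reached 10% of cells for 0 of 8 genes in the Epi-like wells and for 2 of 8 in the ESCs. At least 1 of them was found in 68.3% of the ESCs and 11.8% of the Epi-like wells, with highest sums of 0.373 and 2.22. Their summed mean level was 0.0332 in the ESCs and 0.0485 in the Epi-like wells. Carry-over of feeder cells was not tested.

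Levels are given as TP10k, that is TPM rescaled to a sum of 10000 in each cell, and averaged over the cells of a plate or a group. TP10k are corrected for transcript length and can be compared between genes. A difference is log2 of the mean in the Epi-like wells plus 0.1 over the mean in the ESCs plus 0.1. The added 0.1 understates the change of genes whose level is near it. A gene is called higher or lower where this difference was at least 2-fold and went the same way on plates 3, 4 and 5. A total of 13109 genes reached 10% of the cells on one or the other side, and of these 2.49% were higher in the Epi-like wells and 1.92% were lower. These shares are the background for the called genes of every list below. Some called members passed the 10% filter through a single side. Examples are *Socs3* and *Notum* through the ESCs, and *Spry4* and *Fgf5* through the Epi-like wells. For such genes the filter favoured the direction of the call. With no filter on genes the LIF and STAT3 list still had 8 genes lower and 0 higher, and the ERK list 7 higher and 0 lower. The median difference of all 13109 genes was 0.04, with 7513 above 0 and 5596 below. Counts above or below 0 in a list are to be read beside these. When the median ratio of the genes was set to 1, 1.91% were higher and 2.35% lower, so the majority direction depends on the scaling.

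**Figure D1:**
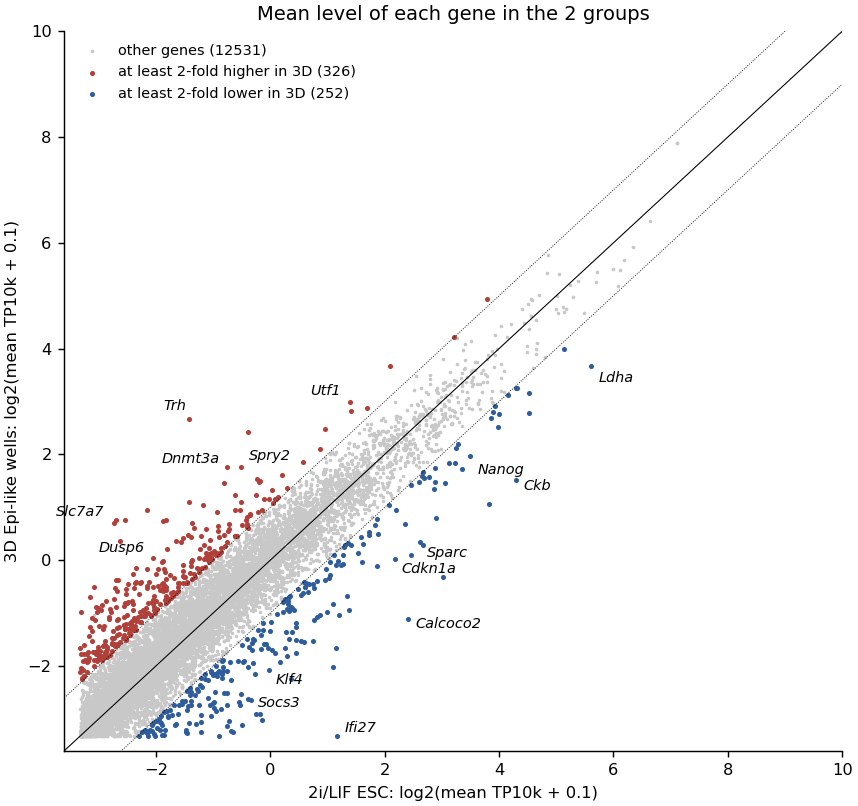
Mean level of each of 13109 genes in the 2i/LIF ESCs (x axis) and the 3D Epi-like wells (y axis), both as log2(mean TP10k + 0.1). Red points are the genes higher in 3D (2.49%), blue points the genes lower (1.92%), and dotted lines mark a 2-fold difference.

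LIF and STAT3 genes were lower as a group. Of 14 listed genes all passed the filter, 8 were lower in the Epi-like wells and 0 were higher, with a median difference of -1.22 beside 0.04 for all genes. *Socs3*, which encodes the feedback inhibitor of the LIF receptor, stood at 0.0836 TP10k on plate 3, 0.06 on plate 4 and 0.0402 on plate 5 against 0.689 in the ESCs, a difference of -2.29. It was found in 9.55% of the Epi-like wells (6.54 to 13.4) and in 95.1% of the ESCs (90.1 to 98). *Stat3* itself was lower, at 0.313, 0.179 and 0.138 TP10k on the 3 plates against 0.697 in the ESCs (difference -1.37). The transcription factors *Klf4* (-2.05) and *Tfcp2l1* (-1.82), the kinase gene *Pim3* (-1.32), the AP-1 gene *Junb* (-1.12), the NF-kappaB cofactor gene *Bcl3* (-1.75) and the adhesion molecule gene *Icam1* (-1.72) made up the rest. The receptor genes were not among them: *Lifr* differed by -0.23 and *Il6st* by -0.0037. Summed over the list, the median Epi-like well held 2.82 TP10k and the median ESC 8.99.

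STAT factors bind an interrupted palindrome, TTCNNNGAA, which was searched on both strands in the 250 bases before the RefSeq start of each gene (GRCm38.p6). It was present in 620 of the 10202 promoters that could be matched, or 6.08%. Among all lower genes with a matched promoter 7.25% held it, and among all higher genes 6.69%. Of the 13 listed LIF and STAT3 genes with a RefSeq promoter, 2 held it, *Socs3* and *Icam1*. Both are among the 8 lower genes, and the rest of these 8 had no match. The windows of *Socs3* and *Icam1* are shown because they hold the match, which capitals mark. The *Socs3* window (chr11:117969367-117969616, minus strand) lies inside the bounds of the longer Gencode gene, and the *Icam1* window (chr9:21015690-21015939, plus strand) lies before the Gencode start. A match is a description of the sequence and not a measured site.
Socs3: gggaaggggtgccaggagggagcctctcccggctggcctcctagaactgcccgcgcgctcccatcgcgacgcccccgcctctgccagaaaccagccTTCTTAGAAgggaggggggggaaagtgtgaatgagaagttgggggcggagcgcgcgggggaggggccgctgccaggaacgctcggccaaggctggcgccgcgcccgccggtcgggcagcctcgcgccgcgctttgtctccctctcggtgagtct
Icam1: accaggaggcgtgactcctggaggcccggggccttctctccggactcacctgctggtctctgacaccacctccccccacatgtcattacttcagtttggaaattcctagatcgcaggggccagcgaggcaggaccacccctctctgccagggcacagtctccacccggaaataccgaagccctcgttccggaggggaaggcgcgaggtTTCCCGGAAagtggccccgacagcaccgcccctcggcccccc

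ERK feedback genes moved the other way. Of 21 listed genes 20 passed the filter, 7 were higher and 0 lower, with a median of 0.57. Without the highest 5% of cells 4 were higher, and *Etv4* (0.9999), *Etv1* (0.87) and *Spred1* (0.87) were not, while with TPM as deposited or the median ratio set to 1 it was 5. The back-transformed mean of ln(TP10k + 1) gave 4 higher and 1 lower. *Dusp6*, the phosphatase that removes the activating phosphates from ERK, was at 0.905, 1.04 and 0.846 TP10k on plates 3, 4 and 5 against 0.141 in the ESCs (difference 2.10). *Spry2* was at 2.71, 2.67 and 4.43 against 0.605 (2.26). *Spry4*, another Sprouty inhibitor of receptor signalling, was at 0.229, 0.175 and 0.177 against 0.00519 (1.48). Although more genes were found per ESC, *Spry4* was found in 50.6% of the Epi-like wells (45 to 56.3) and in 9.86% of the ESCs (5.5 to 16). *Dusp4* was likewise found more often, in 34.7% against 13.4% (difference 1.33). The ETS factors *Etv4* (1.10) and *Etv1* (1.15) and the Sprouty-related *Spred1* (1.06) completed the set.

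Not every ERK-linked gene was higher. *Etv5*, the third ETS factor of that subfamily, differed by -0.78 and *Ccnd1*, which encodes cyclin D1, by -0.83, both short of 2-fold. The growth factor response genes *Egr1* (0.43), *Fos* (0.69) and *Myc* (0.82) also stayed short of it. Among 12 immediate early genes that passed, *Junb* alone was called, and the median was 0.00. Summed over the ERK list the median Epi-like well held 8.44 TP10k and the median ESC 5.19, and the 3 plates gave 8.53, 8.10 and 8.52.

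**Figure D2:**
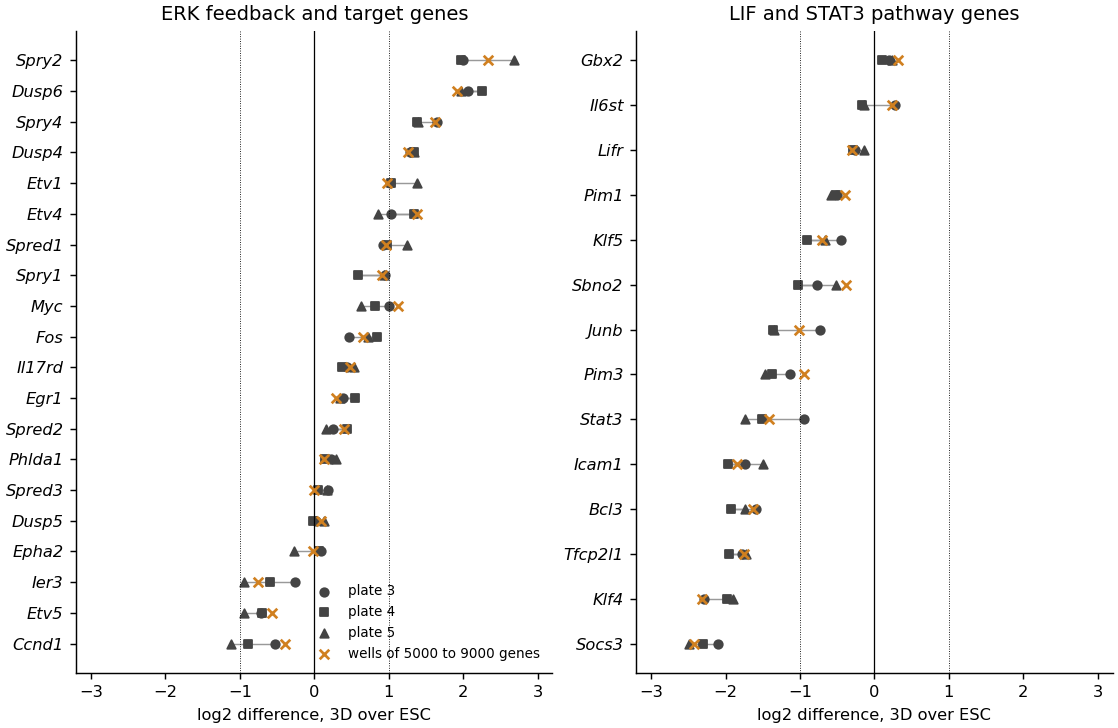
Difference of each ERK gene (left, 20 genes) and each LIF and STAT3 gene (right, 14 genes) between the Epi-like wells of plates 3, 4 and 5 and the ESCs, as log2 of the mean TP10k + 0.1. Crosses use wells with 5000 to 9000 genes on both sides, and dotted lines mark 2-fold. *Dusp6* lies near 2 on every plate, *Spry2* lies higher on plate 5 than on plates 3 and 4, and *Socs3* lies below the lower dotted line on every plate.

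WNT target genes, which GSK3 inhibition can raise, were mixed. Of 17 listed genes 12 passed, 1 was higher and 1 lower, with a median of 0.03. The lower gene was *Notum*, a secreted WNT inhibitor, at 0.0504, 0.0395 and 0.0349 TP10k against 0.266 (difference -1.37), and it was found in 5.1% of the Epi-like wells and 71.8% of the ESCs. *Lef1*, the WNT effector, was higher by 1.09 (0.93 without plate 4), but without the highest 5% of cells of each group the difference was 0.47. *Axin2*, the most used reporter of the pathway, differed by 0.13. Of 11 genes for FGF and WNT ligands, Frizzled receptors and co-factors that passed, the receptor gene *Fzd7* was higher (1.22), and the median of the list was -0.10.

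The naïve pluripotency genes divided. Of 15 genes 5 were lower and 1 higher, with a median of -0.70. *Klf2* (-1.01, and -0.98 in cells with 5000 to 9000 genes), *Tbx3* (-1.22) and the PRDM factor *Prdm14* (-1.38) were lower besides *Klf4* and *Tfcp2l1*. *Esrrb* (-0.52), *Zfp42* (-0.70) and *Nr5a2* (-0.72) lay below 0 without reaching 2-fold, and *Nr0b1* differed by 0.48. *Dppa5a*, by far the most abundant member, differed by 0.79 in the opposite direction, and for this reason the summed list was larger in the median Epi-like well (246.2 TP10k) than in the median ESC (155.9) while its median difference was below 0. *Dppa3*, which encodes a maternal factor that protects DNA from demethylation, was at 2.32, 1.94 and 1.65 TP10k against 0.341 (2.22), yet it was found in 36.3% of the Epi-like wells and 59.2% of the ESCs. Its higher mean came with fewer positive cells, the highest at 27.5 TP10k against 6.77.

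The core factors did not move as 1 block. *Nanog* was lower, at 4.71, 3.39 and 3.45 TP10k against 11.2 (-1.52). *Pou5f1* was at 15.6, 14.8 and 12.1 against 27.8, which at -0.97 fell just short of 2-fold, and *Sox2* differed by -0.41. In contrast *Utf1*, which encodes a chromatin factor of pluripotent cells, was at 7.93, 8.93 and 6.77 against 2.53 (1.60), and *Dppa4* (1.29) and the RNA-binding protein gene *Lin28a* (1.23) were also higher. The plates of *Lin28a* were close, at 0.496, 0.487 and 0.484 TP10k against 0.152. The core list as a whole had 3 genes higher and 1 lower of 12, with a median of 0.37. Summed, its level was 45.6 TP10k in the median Epi-like well and 55.6 in the median ESC, and it thus differs in sign from the median of its genes.

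Formative and primed genes were higher where they were called. Of 20 listed genes 19 passed, 7 were higher and 0 lower, with a median of 0.54. Without plate 4 it was 4, and without the highest 5% of cells or by the back-transformed mean it was 1, *Dnmt3a* (2.62 without the highest cells). Leading was *Dnmt3a*, followed by the cytokine response kinase *Pim2* (1.44), *Fgf5* (1.35), the epithelial factor *Grhl2* (1.14), *Etv4*, *Lef1* and *Dnmt3b*. *Fgf5*, the classical gene of the post-implantation epiblast, was at 0.178, 0.21 and 0.127 TP10k against 0.00654 and was found in 16.2% of the Epi-like wells (12.3 to 20.8) and 4.93% of the ESCs (2 to 9.89). Without the highest 5% of cells its difference was 0.71, that of *Grhl2* 0.75, that of *Pim2* 0.99, that of *Etv4* 0.9999, that of *Lef1* 0.47 and that of *Dnmt3b* 0.78. *Otx2* (0.54) stayed short of 2-fold. Of 11 primitive streak and posterior genes 3 passed the filter at all (*Mixl1*, *Eomes* and *Gsc*), and 0 were called (median -0.15).

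The enzymes of DNA methylation differed by class. *Dnmt3a*, a de novo methyltransferase, was at 2.78, 3.77 and 3.3 TP10k against 0.491 (2.52), and *Dnmt3b* at 1.07, 1.28 and 0.961 against 0.476 (1.07). *Uhrf1*, which brings the maintenance enzyme to replicated DNA, was lower, at 1.29, 1.4 and 1.35 against 3.21 (-1.19). *Dnmt1*, the maintenance enzyme, differed by -0.39 and the cofactor *Dnmt3l* by 0.38. The demethylation genes *Tet1* (0.09), *Tet2* (-0.60) and *Tet3* (-0.14) were not called. The list held 10 genes, 2 higher and 1 lower, with a median of -0.02.

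Among ligands and their responses, *Fgf15* was at 0.469, 0.782 and 0.565 TP10k against 0.018 (2.59), while *Fgf4*, the ligand that ESCs make for themselves, differed by -0.27 and the receptor gene *Fgfr1* by 0.50. With *Fgf5*, 2 of the 6 genes of the FGF4 list that passed were higher and 0 lower (median 0.33).

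In the Nodal list 3 of 16 genes that passed were higher and 0 lower (median 0.18). *Lefty1*, a secreted inhibitor that Nodal itself induces, was at 2.14, 2.75 and 1.88 TP10k against 0.555 (1.85). *Skil*, a SMAD corepressor induced by the pathway, was at 0.558, 0.58 and 0.774 against 0.107 (1.83). The ligand gene *Nodal* differed by -0.49, its co-receptor gene *Tdgf1* by 0.47, and the other target *Lefty2* by 0.18.

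In the BMP list 3 of 14 were higher and 0 lower (median 0.04). The target genes *Id1* and *Id3*, which encode inhibitors of helix-loop-helix factors, were higher by 1.47 and 1.69, with *Id3* at 0.693, 1.15 and 0.531 TP10k against 0.176. The ligand gene *Bmp4* was higher by 1.31, but it was found in 11.1% of the Epi-like wells (13.4% of the ESCs) and differed by 0.46 without the highest 5% of cells. On plate 5 *Id1*, *Id3* and *Bmp4* each had the smallest difference of the 3 plates (1.05, 1.19 and 0.79).

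**Figure D3:**
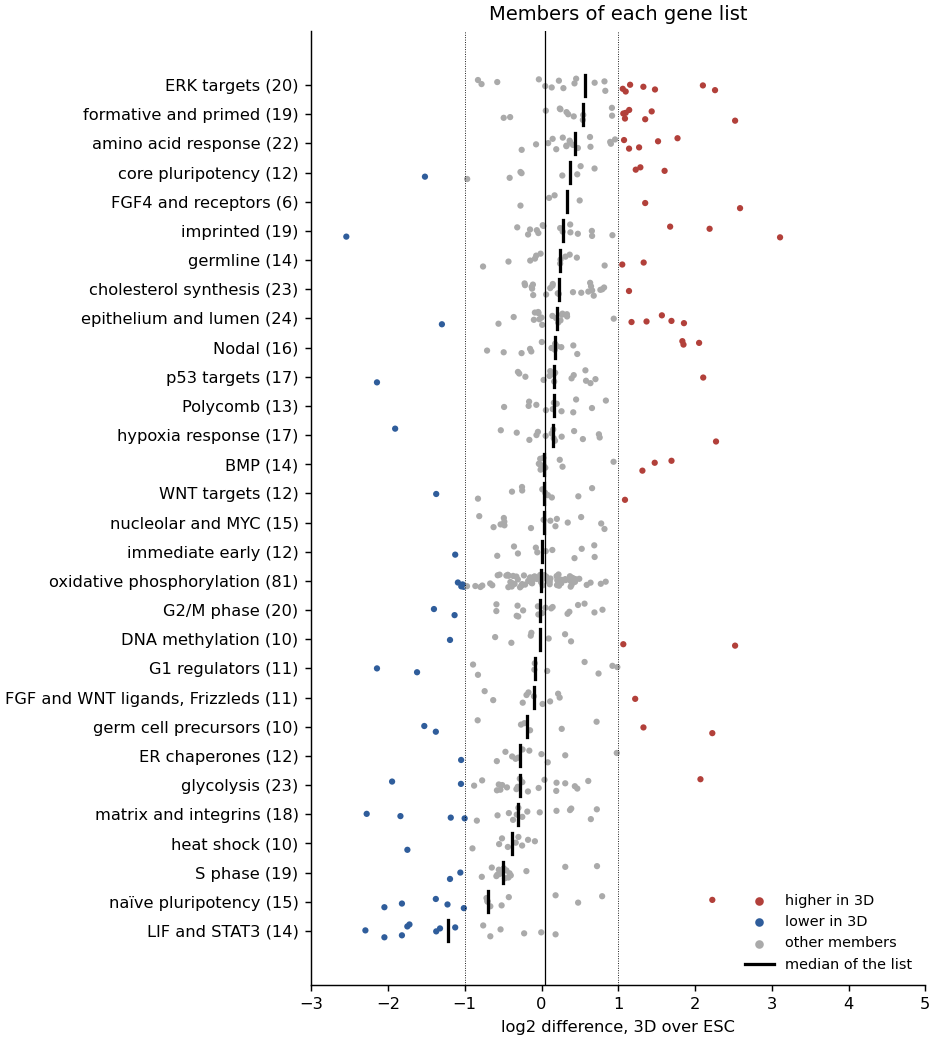
Members of 30 gene lists by their difference (3D over ESC, log2 of mean TP10k + 0.1), with the number of members that passed the filter in brackets and the lists ordered by their median (black bar). Red points are genes higher in 3D and blue points genes lower; the LIF and STAT3 list has the lowest median (-1.22) and the ERK list the highest (0.57).

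Genes of the epithelium were higher in part. Of 24 genes for junctions, polarity and the apical surface 5 were higher and 1 lower, with a median of 0.20. *Epcam*, a surface adhesion molecule of epithelia, was at 1.84, 1.43 and 2.11 TP10k against 0.423 (1.86). The tight junction genes *Cldn4* (1.17), *Cldn6* (1.37) and *Cldn7* (1.69) and the apical polarity gene *Crb3* (1.57) were higher as well. *Ezr*, which ties the apical membrane to actin, was lower, at 0.605, 0.431 and 0.745 TP10k against 1.6 (-1.30). The lumen sialomucin gene *Podxl* differed by 0.01 and *Cdh1*, which encodes E-cadherin, by -0.56. *Crb3* overlaps *Dennd1c* in the annotation, and its reads may not be separable.

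Basement membrane and intermediate filament genes were lower where called, apart from a keratin. Of 18 matrix and integrin genes 4 were lower and 0 higher (median -0.31). *Sparc*, a collagen-binding matrix protein, was at 1.47, 1.1 and 0.941 TP10k against 6.04 (-2.28). *Nid1*, which links laminin to collagen IV, differed by -1.84, *Col4a1* by -1.18 and the laminin chain gene *Lamc1* by -1.001 (-0.88 in cells with 5000 to 9000 genes). Other laminins did not follow, with *Lamb1* at 0.64 and *Itgb1*, the main laminin receptor chain, at 0.72. *Vim*, the vimentin gene, was at 0.369, 0.461 and 0.335 TP10k against 2.19 (-2.23) and was found in 28% of the Epi-like wells (23.1 to 33.3) and 98.6% of the ESCs (95 to 99.8). *Krt18* was higher by 1.26 (0.73 without the highest 5% of cells) and its partner *Krt8* differed by 0.22, so that the short list of keratins and vimentin had 1 gene higher and 1 lower of 4 (median 0.18).

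**Figure D4:**
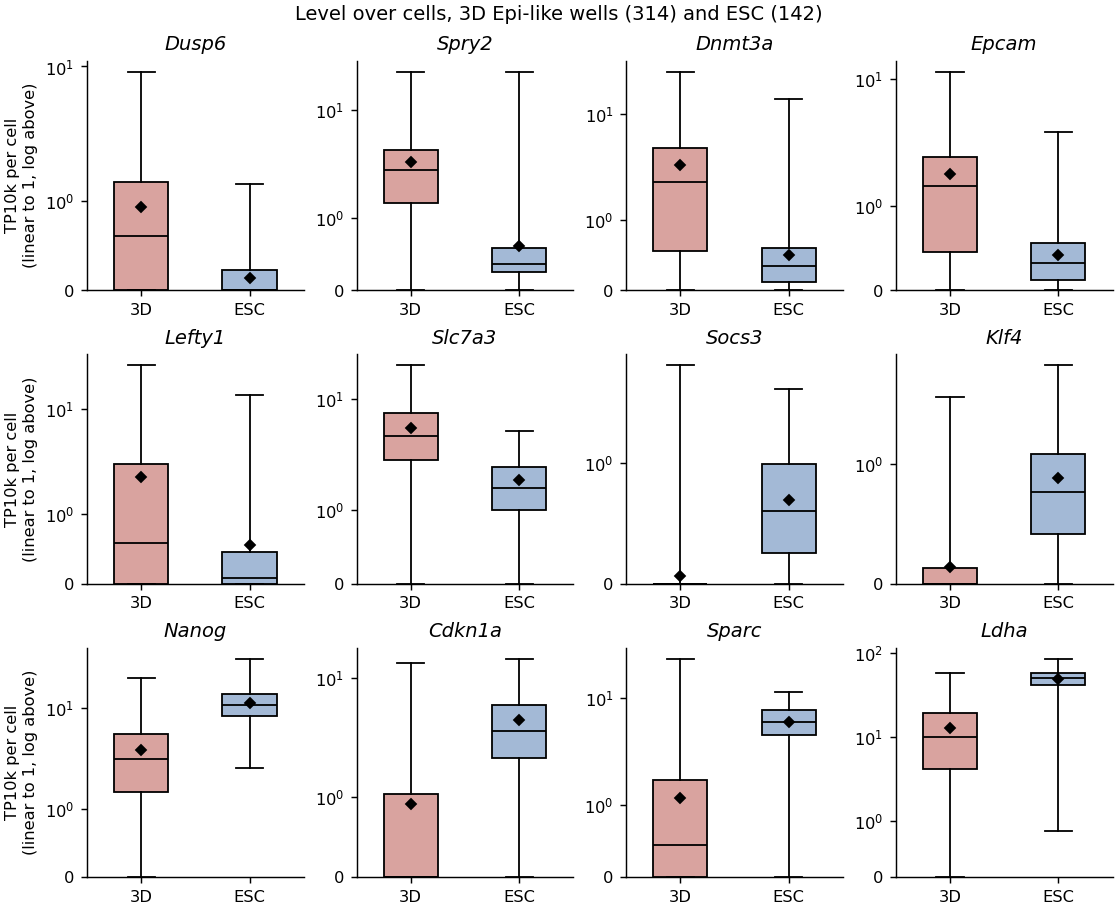
Level per cell of 12 genes in the Epi-like wells (red) and the ESCs (blue), in TP10k on an axis that is linear to 1 and logarithmic above. Boxes span the quartiles with a line at the median, whiskers reach the lowest and highest cell, and diamonds mark the mean; for *Socs3*, *Klf4* and *Cdkn1a* the median Epi-like well is at 0, and for *Nanog* and *Ldha* the Epi-like box lies below the ESC box.

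Among metabolic genes, *Ldha*, which turns pyruvate into lactate, was at 13.5, 13.5 and 10.9 TP10k against 49 in the ESCs (-1.95), and *Pgam1*, an enzyme of lower glycolysis, was at 9.03, 9.78 and 9.52 TP10k against 19.7 (-1.05). *Pdk1*, the kinase that shuts pyruvate out of the mitochondrial cycle, was higher, at 1.53, 1.47 and 1.56 against 0.286 (2.07). Of 23 glycolysis genes 2 were lower and 1 higher, with a median of -0.28, and 15 of 23 lay below 0. Of all 13109 genes 5596 lay below 0. Of 81 genes of oxidative phosphorylation that passed 4 were lower (*Atp5d*, *Atp5g1*, *Cox5a* and *Cox8a*, from -1.01 to -1.09) and 0 higher, and the median was -0.01. Among all genes 1.92% were lower, and these 4 were barely 2-fold. In cells with 5000 to 9000 genes *Cox8a* was still 2-fold lower (-1.02), and the other 3 lay between -0.83 and -0.99. Without plate 5, 1 of the 81 was lower. Genes that answer low oxygen gave 1 higher and 1 lower of 17 (median 0.15). The mitophagy receptor gene *Bnip3* was at 1.84, 2.92 and 3.17 TP10k against 0.471 (2.27), and the adenylate kinase gene *Ak4* was at 0.214, 0.253 and 0.186 against 1.09 (-1.91). *Bnip3* overlaps *Gm45507* in the annotation.

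Amino acid response genes were higher where called. Of 22 that passed 5 were higher and 0 lower (median 0.44), and 20 of 22 lay above 0. *Slc7a3*, a carrier of arginine and lysine, was at 5.23, 5.54 and 5.61 TP10k against 1.84 (1.52). The stress-responsive cofactor gene *Nupr1* (1.77), the pseudokinase gene *Trib3* (1.14), the transcription factor gene *Ddit3* (1.27) and *Aldh18a1*, an enzyme of proline synthesis (1.07), were the others. In cells with 5000 to 9000 genes on both sides *Trib3* differed by 0.94, *Ddit3* by 0.90 and *Aldh18a1* by 0.81. The central factor *Atf4* differed by -0.26. In cholesterol synthesis *Lss*, which closes the sterol ring, was higher (1.14) and 0 of 23 were lower (median 0.23), with 17 of 23 above 0. Of all 13109 genes 7513 lay above 0.

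Cell cycle genes were mostly below 0 in S phase. Of 19 S phase genes 17 lay below 0 (median -0.50), with *Uhrf1* and the ribonucleotide reductase gene *Rrm2* (-1.06) called lower and 0 higher. In 20 G2/M genes the median was -0.02, with *Cdk1* (-1.13) and *Ube2c* (-1.40) lower. Among cells with 5000 to 9000 genes these were -0.86 and -0.72. Of 11 G1 regulators 2 were lower (median -0.09). *Cdkn1a*, which encodes the inhibitor p21, was at 0.965, 0.987 and 0.814 TP10k against 4.41 (-2.14) and was found in 44.6% of the Epi-like wells and 99.3% of the ESCs. *Ccnd3*, which encodes cyclin D3, was at 3.47, 3.14 and 3.08 against 10.1 (-1.62), while *Cdkn1b*, which encodes the inhibitor p27, differed by 0.99.

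*Cdkn1a* is also a p53 target, and 17 such genes gave 1 lower and 1 higher (median 0.17). The higher gene was *Pmaip1*, which encodes the death-promoting protein Noxa, at 0.323, 0.559 and 0.57 TP10k against 0.0363 (2.11). *Mdm2* (0.58) and *Bax* (0.39) were not called. All 10 heat shock genes lay below 0 (median -0.39), with *Hspb1* called lower. Of 12 chaperone genes of the endoplasmic reticulum *Calr* was lower (-1.05, and -0.93 in cells with 5000 to 9000 genes) and the median was -0.27. Polycomb genes (0 called of 13, median 0.16) and nucleolar and MYC genes (0 of 15, median 0.03) were not called in either direction.

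Among imprinted genes, which are expressed from 1 parental copy, 3 were higher and 1 lower of 19 (median 0.28), and *Phlda2* and *Plagl1* were among the 15 largest in their direction. *Phlda2*, a growth-restraining gene of the placenta, was at 1.8, 1.94 and 1.74 TP10k against 0.124 (3.11). *Grb10*, an inhibitor of insulin signalling, was at 0.806, 0.708 and 0.893 against 0.0977 (2.19). *Gnas*, the gene of the stimulatory G protein, was higher by 1.68. *Plagl1*, a zinc finger gene, was at 0.00324, 0.0119 and 0.00452 against 0.521 (-2.54) and was found in 2.55% of the Epi-like wells and 96.5% of the ESCs. *Gnas* overlaps *Nespas* and *Plagl1* overlaps *Gm27741*, so their reads are uncertain, and no allele was resolved.

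In the germ cell precursor list 2 were higher and 2 lower of 10 (median -0.19). *Kit*, the receptor of stem cell factor, was at 0.228, 0.196 and 0.209 TP10k against 0.795 (-1.53) beside *Prdm14*, while *Dppa3* and *Nanos3* (1.33) were higher. *Nanos3* was found in 8.92% of the Epi-like wells and differed by 0.45 without the highest 5% of cells. It passed the 10% filter through the ESCs alone, so a larger share of the ESCs held it. Of 14 germline genes that passed *Sycp3* (1.33) and *Mael* (1.05), of the meiotic axis and the piRNA pathway, were higher and 0 lower (median 0.25). *Gata3*, an ExE marker and one of the 5 factors, was lower (-1.01), found in 2.23% of the Epi-like wells and 44.4% of the ESCs.

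The genes with the largest differences were taken as the 15 a direction that reached 25% of the cells on one or the other side and held 2-fold without the highest 5% of cells, with unnamed gene models left out. Above *Phlda2* stood *Trh*, *Enpp3*, *Slc7a7* and *Halr1*. *Enpp3*, an ectoenzyme that cleaves nucleotides, was at 1.24, 1.65 and 1.84 TP10k against 0.0551 (3.44). *Slc7a7*, a transporter chain for cationic amino acids, was at 1.47, 1.73 and 1.4 against 0.0507 (3.44) and overlaps *Oxa1l* on the other strand. *Halr1*, a long noncoding RNA next to the HoxA cluster, was at 1.54, 1.48 and 1.79 against 0.0727 (3.30). Each of these was found in more Epi-like wells than ESCs despite the lower depth, *Enpp3* in 76.4% against 31% and *Halr1* in 47.1% against 26.8%. *Car4*, a carbonic anhydrase on the cell surface, was at 1.17, 1.49 and 0.91 TP10k against 0.0611 (3.00).

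The DNA damage response gene *Gadd45a* was higher by 2.58, the cell surface glycoprotein gene *Emb* by 2.53 and the acyl-CoA thioesterase gene *Acot1* by 2.34. *Dock10* was uneven between plates, at 5.01, 2.69 and 8.05 TP10k. *Gstt2* (2.61), *Impdh2-ps* (2.46) and *Ftl2-ps* (2.28) have near-identical relatives among which reads may be split, and the last pair are named as pseudogenes, a class that the study's methods state was filtered.

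On the lower side stood *Ifi27*, *Calcoco2*, *Ckb* and several genes found in few Epi-like wells and most ESCs. *Htra1*, a secreted protease, was found in 3.5% of the Epi-like wells (1.76 to 6.18) and 93.7% of the ESCs (88.3 to 97.1), at 0.0429, 0.0378 and 0.0187 TP10k against 0.789 (-2.74). *Mras*, a small GTPase of the RAS family, was found in 2.87% and 88% (-2.66), the apolipoprotein gene *Apoc2* in 1.27% and 73.9% (-2.62), and *Xlr3a* of the X-linked lymphocyte-regulated family in 0.955% and 56.3% (-2.59). The water and glycerol channel gene *Aqp3* differed by -2.60 and the tubulin gene *Tuba3a* by -2.82. *Xlr3a* and *Tuba3a* have close relatives and are uncertain for that reason. The small nucleolar RNA genes *Snord49a* and *Snord49b* had values in the Epi-like wells of plate 3 alone, for *Snord49b* in 1 cell, and are named here only because the rule takes them.

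*Oas1a* and *Oas1g*, which encode sensors of double-stranded RNA, were in the lower set, and this led, after the values were seen, to a look at 53 interferon-related genes. Of the 30 that passed 7 were lower (among them *Ifi27*, *Oas1a*, *Oas1g*, *Oasl1*, *Oas2* and *Irf9*) and 1 higher (*Irf5*), with a median of -0.37. This count and median include *Oas1a* and *Oas1g*, which prompted the look, and *Ifi27* of the same lower set. *Oas1a* and *Ifi27* also passed the filter through the ESCs alone. The count is therefore no support for a change of the interferon genes as a group. *Oas1a* was at 0.0462, 0.0261 and 0 TP10k against 0.802 (-2.86) and was found in 4.14% of the Epi-like wells and 92.3% of the ESCs. *Ifi27* was listed at 0 in every Epi-like well and found in 94.4% of the ESCs, with a mean of 2.15 TP10k. Other interferon genes differed less, with *Isg15* at -0.40 and *Bst2* at 0.57.

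The interferon-stimulated response element was searched by its core (TTTC, any 2 bases, TTTC) on both strands of the same windows, and was present in 2.52% of the 10202 promoters. Of the 22 interferon-related genes with a RefSeq promoter 11 held it, of which 2 were lower and 9 were not called. The windows of *Oas1a* (chr5:120907526-120907775) and *Oas1g* (chr5:120887614-120887863), both on the minus strand, are shown because they end in the same run of 2 overlapping matches, which is in capitals and reads on the reverse strand. The genes are neighbouring copies, and reads may be split between them.
Oas1a: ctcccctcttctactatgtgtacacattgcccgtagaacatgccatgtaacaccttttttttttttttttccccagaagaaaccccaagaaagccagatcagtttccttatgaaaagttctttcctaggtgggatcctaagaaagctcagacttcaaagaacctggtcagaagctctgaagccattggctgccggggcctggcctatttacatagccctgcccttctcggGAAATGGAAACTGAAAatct
Oas1g: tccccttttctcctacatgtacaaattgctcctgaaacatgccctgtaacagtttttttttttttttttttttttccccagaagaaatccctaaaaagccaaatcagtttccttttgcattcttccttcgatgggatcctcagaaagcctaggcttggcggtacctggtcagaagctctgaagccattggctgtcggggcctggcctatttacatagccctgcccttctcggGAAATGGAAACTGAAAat

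The hairpin genes of the miR-290 cluster on chromosome 7, which is active in pluripotent cells, were also examined after *Mir294* had entered the lower set. Reads over a hairpin in a library primed on poly(A) come from the primary transcript and are not levels of the mature miRNA. *Mir294* was at 0.224, 0 and 0.218 TP10k on plates 3, 4 and 5 against 2.04 (-3.12) and was found in 0.637% of the Epi-like wells (0.0772 to 2.28) and 42.3% of the ESCs (34 to 50.8). *Mir293* was listed at 0 in every Epi-like well against a mean of 0.438 in the ESCs, 12% of which had a value. *Mir291b* was at 0, 0.934 and 0 against 1.26 (-1.70), found in 0.318% and 19.7%. These 3 of 7 hairpins passed the filter and 3 of 3 were lower, but all passed through the ESCs alone. Their shared direction was thus largely set by the filter, and *Mir294* itself prompted the look, so the count is no support. Each of the 3 hairpins rests on 2 or fewer Epi-like wells and, for *Mir291b*, the value of plate 4 came from 1 cell. *Mir294* overlaps *Nlrp12*. The mature sequences below (RefSeq, GRCm38.p6) show that 3 members of the cluster share the seed AAGUGCU, in capitals, while miR-291b-3p has the seed AAGUGCA.
miR-291a-3p: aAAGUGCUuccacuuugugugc
miR-294-3p: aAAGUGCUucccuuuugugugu
miR-295-3p: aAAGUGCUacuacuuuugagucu
miR-291b-3p: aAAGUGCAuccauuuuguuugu

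The other sorted populations of the same pool were compared with their own 2D counterparts to see which differences were shared. Wells in columns 9 to 16 had 9 of 12 VE markers in at least 10% of their cells, with a median sum of 23.8 TP10k, and were set against 2D iXEN cells. Wells in columns 17 to 24 had 8 of 10 ExE markers there, as many as the ESCs but at a median sum of 2.35 against 0.253, and were set against 2D iTSC. In these wells 5 of 12 VE markers also reached 10%, 62.6% of the cells held at least 1 of them, and the highest sum was 64.7. The 2D iXEN cells were reprogrammed from mCherry-marked iGATA6 ESCs in XEN cell medium. The 2D iTSC were reprogrammed from 5-Factor ESCs in TSC medium with FGF4 and heparin. Both met doxycycline, later withdrawn, so in these pairs the drug was on both sides, unlike in the Epi-like pair. The backgrounds were 0.906% of 12248 genes higher and 1.48% lower in the VE pair, and 3.65% of 13012 genes higher and 2.67% lower in the ExE pair. Of the genes higher in the Epi-like wells 22 were higher in the VE pair and 44 in the ExE pair, which is 6.75% and 13.5% of them, and 19.8% and 9.26% of the genes higher in those pairs, while 12 and 9 were lower there. Of the lower genes 29 and 60 were lower there too, or 11.5% and 23.8% of them, and 16% and 17.2% of the lower genes of those pairs, while 8 and 12 were higher there. All 3D cells share 1 pool and plates 3, 4 and 5, so these are not independent comparisons.

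Genes that went the same way in every pair numbered 12 higher and 17 lower. *Spry2* was higher by 2.26, 1.75 and 2.27 in the Epi-like, VE and ExE pair, *Dnmt3a* by 2.52, 1.27 and 1.36, and *Nupr1* by 1.77, 2.15 and 3.35. *Pim3* differed by -1.32, -1.39 and -1.52 and *Aqp3* by -2.60, -1.42 and -1.45. *Gadd45b*, a stress-induced relative of *Gadd45a*, differed by -2.22, -1.88 and -1.29. *Dusp6* and *Socs3* were not among them.

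**Figure D5:**
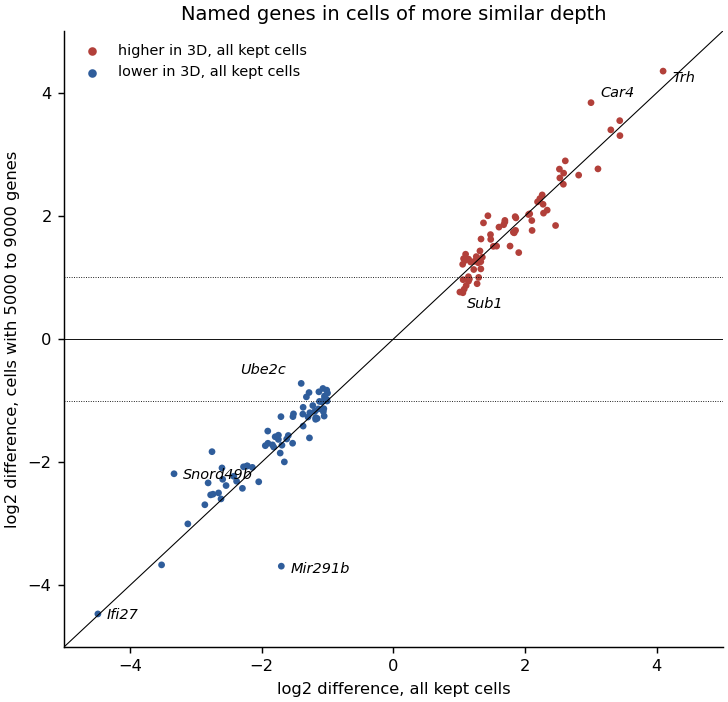
Difference of each named gene called higher (red) or lower (blue) over all kept cells (x axis) and over cells with 5000 to 9000 genes on both sides (y axis), both log2 of mean TP10k + 0.1. Most points lie near the diagonal; *Mir291b* moved from -1.70 to -3.69 and *Ube2c* from -1.40 to -0.72.

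Since depth differed between the sides, the comparison was repeated in cells with 5000 to 9000 genes. This left 43.9% of the Epi-like wells, 87 of them on plate 3, 25 on plate 4 and 26 on plate 5, and 62 ESCs, with medians of 5667.5 and 8664.5 genes, so the gap was narrowed and not closed. There 2.78% of 12567 genes were higher and 1.92% lower, and 79.1% of the higher and 77.8% of the lower genes were called again. *Dusp6* differed by 1.92, *Spry2* by 2.34, *Socs3* by -2.43, *Nanog* by -1.22 and *Cdkn1a* by -2.09. The LIF and STAT3 list had 7 of 14 genes lower and the ERK list 6 of 20 higher, with *Pim3* at -0.94, *Spred1* at 0.96 and *Etv1* at 0.97 no longer 2-fold.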

How the data were processed

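Single cells were sorted into plates and profiled by SMART-seq2. The authors deposited TPM made with kallisto and tximport on GRCm38 (Gencode vM16), after filters on mitochondrial, ribosomal and pseudogenes per their methods. The table held 20999 genes in 1931 wells, of which 39 had no values. TPM carry no read number, so the methods' minimum of aligned reads was not applied, cells could not be thinned, and depth was taken as genes above 0 TPM.

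Wells with at least 2500 genes were kept (314 of 382 Epi-like, 142 of 317 ESC, 456 in all), TPM were rescaled to 10000 per cell (TP10k), and means over cells were compared as log2 with 0.1 added. Genes reaching 10% of the cells on one or the other side were used, and calls (326 higher, 252 lower) needed 2-fold in the same direction on 3 plates. No wells held identical values. Tables were computed with Python 3.11.15 and pandas 2.3.3. The comparison was tried on ESC wells split at random, with known fold changes put into chosen genes. Both sides of that check were ESCs, so it did not cover the gap in depth. With 1 pool and 1 culture no test was possible.

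Lists of genes and wells were chosen with earlier results of these data known. Named are members of the lists and the 15 largest differences a direction, by the rule given beside them (136 called genes in all). RefSeq promoters matched 77.8% of the genes that passed, too few to compare base content between higher and lower genes, and that check is void. Some members of the lists are not reported here. Gene bounds and overlaps came from Gencode vM21. Overlaps are named above for some genes only. Other called genes also share exon bases with a gene on the other strand, among them *Stat3*, *Junb*, *Bcl3*, *Icam1*, *Dnmt3a* and *Ccnd3*. The same uncertainty of reads holds for them. Alternatives changed the depth limits, pseudocount, gene filter, scaling, mean, plates and mixed wells.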

Additional observations from a re-analysis of the deposited data

Results flagged for a closer look

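Among the named genes, for 13 (14 pairs of differences) the comparison of Epi-like wells with ESCs and that of another 3D population with its 2D counterpart were at least 2-fold in opposite directions on plates 3, 4 and 5 alike. The difference between the comparisons was not tested, and the plates are technical splits. *Car4* was 3.00 in the Epi-like pair, -1.42 in the VE pair and -1.41 in the ExE pair. In the VE pair *Krt18* was -2.59 against 1.26 in the Epi-like pair, *Cldn6* -1.87 against 1.37, *Cldn7* -1.94 against 1.69, and *Crb3* -1.02 against 1.57. The meiotic gene *Sycp3* was -1.49 there against 1.33, and *Socs3* was 1.02 against -2.29. In the ExE pair *Utf1* was -2.13 against 1.60 in the Epi-like pair, *Dnmt3b* -2.24 against 1.07, *Etv4* -1.39 against 1.10, and *Etv1* -1.002 against 1.15. *Pdk1* was -1.45 there against 2.07, and *Col4a1* was 1.94 against -1.18.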

How the results depend on the processing

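The number added before taking logs decided most. With 0.01 in place of 0.1, 8.38% of genes were higher and 6.25% lower (2.49% and 1.92% as reported), and 8 lists in place of 4 had a median of at least 0.5 in size. With 1 it was 0.183% higher, 0.267% lower and 0 lists, and 18 of the 30 genes with the largest differences were still 2-fold. The mean without the highest 5% of cells gave 1.44% higher and 3.53% lower, and the back-transformed mean of ln(TP10k + 1) 1.14% and 3.18%, so that both turned the majority from higher to lower. The cause was not tested. The other alternatives, which were stricter or like depth limits, gene filters, TPM as deposited, the median ratio set to 1, and leaving out mixed wells or a plate, gave 1.77% to 2.78% higher and 1.29% to 2.35% lower. Leaving out plate 3, 4 or 5 gave 2.50% to 2.71% higher and 1.88% to 2.15% lower. None of the named genes that were called changed direction in any of the 14 alternatives. However, a changed added number or gene filter could not reverse a direction. Leaving out a plate could not either, since a call needed the same direction on each plate. Of the called named genes, 100 fell under 2-fold with 1 added, 25 with TPM as deposited, 21 without the highest cells and 20 at like depth. No paired analysis was possible because each side is 1 sample. Depth limits what can be said of genes found in few cells.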
